A study of Mus musculus with 27 samples.

Results

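The change of total RNA in RAW264.7 cells after 6 h of lipopolysaccharide (LPS) was described gene list by gene list, from 8 of the 27 libraries of the series. These were all 4 libraries of total RNA from cells given LPS at 1 µg/ml with DMSO and all 4 from cells given DMSO alone, chosen by treatment label. RAW264.7 is a mouse macrophage-like line. DMSO is a common drug solvent, and TM7nox, a small molecule of the series, was given to none of these 8 cultures. The labels number the replicates 1 to 4 in each group but do not say whether they were separate cultures on separate days, so p-values measure the spread between these libraries.

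LPS is a cell wall component of Gram-negative bacteria. It is handed by CD14 to the receptor complex of TLR4 and MD-2, which signals through MyD88 and TRIF. MyD88 leads to the transcription factors NF-kB and AP-1 and to inflammatory cytokines. TRIF leads to IRF3, to interferon beta and, through the interferon receptor, to the interferon-stimulated genes. In macrophages LPS is also known for slowing division and for redirecting glucose and arginine metabolism.

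The label was checked against markers. Of 12 macrophage markers, 12 had a mean of at least 10 CPM (counts scaled to a common library size), among them Cd68, Csf1r, Adgre1, Lyz2 and Mpeg1, and their summed level was 7905 to 9242 CPM in DMSO and 8297 to 10519 CPM in LPS. None of the listed markers of T cells, B cells, neutrophils, mast cells, dendritic cells, fibroblasts, epithelium, endothelium or erythroid cells reached 10 CPM. The summed markers of dendritic cells were 2.29 to 4.13 CPM in DMSO and 8.26 to 13.5 CPM in LPS, those of B cells 0 to 0.466 and 2.27 to 5.26 CPM, and those of neutrophils 0 to 0.232 and 2.03 to 4.69 CPM. In each of these 3 lists 1 gene was called higher: Xcr1 went from 21 to 826 counts over the group, Pax5 from 0 to 288 and S100a8 from 7 to 263. Of the other dendritic cell markers, Zbtb46 went from 188 to 133 counts and was not called (FDR 0.159 in edgeR). Flt3, Clec9a and Siglech had at most 3 counts in a group. The endothelial marker Cdh5 was called higher too, from 12 to 89 counts (FDR 0.0262 in edgeR). The summed endothelial markers overlapped, at 0.332 to 4.13 CPM in DMSO and 1.27 to 3.62 CPM in LPS, and the others of that list were too low to test. The other B cell and neutrophil markers, among them Ms4a1, Ly6g and S100a9 at 0 counts, had at most 14 counts in a group, and the part of these cell types in the results was not tested. The DMSO libraries held 2728534, 27543656, 19995766 and 21255139 counts in replicates 1 to 4, and the LPS libraries 17361022, 25682403, 24164641 and 28285856. DMSO replicate 1 was the shallowest and stood apart from the other 7 libraries on the second principal component (24.2% of the variance). The first component (60.5%) separated LPS from DMSO.

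Of 12369 genes tested, 2500 (20.2%) were higher and 2690 (21.7%) were lower in LPS at a false discovery rate (FDR) under 0.05 by edgeR's quasi-likelihood test, together 42.0%. Counts of each list are set against these shares, and the median log2 fold change of all genes tested was -0.04. Scaling by library totals in place of TMM moved the median log2 fold change by -0.28 and gave 1629 higher and 4253 lower genes, so that 27.7% and not 48.2% of the calls were increases. Changes are therefore relative to the typical gene of these libraries. Genes named below come from a panel, from the largest changes in each list and from the largest changes over all protein-coding genes. The last 2 sources take only called genes with a mean of at least 5 CPM whose groups did not overlap. Coordinates of genes are from GENCODE M39 on GRCm39. In bulk RNA, fewer transcripts per cell and fewer cells with the transcript cannot be told apart. Without DMSO replicate 1 there were 2671 higher and 2914 lower genes.

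At least a 2-fold change was found for 1294 higher genes (10.5% of those tested) and 1340 lower genes (10.8%). By the fitted change, 110 of the higher genes changed by 64-fold or more and 136 by 16-fold to 64-fold. These numbers are uncertain for genes at 0 counts in DMSO, where only a lower bound exists against a floor of 3 counts. Pax5 was fitted at 9.12 log2 units with a bound of 86.4-fold, and the bound of Cd200 was 11.7-fold. Among the lower genes none changed by 64-fold or more, and 17 changed by 16-fold to 64-fold. The groups did not overlap for 4825 genes (39.0%): all 4 LPS libraries lay above all 4 DMSO libraries for 2334 (18.9%) and below them for 2491 (20.1%). Protein-coding genes made up 10752 of the genes tested, with 2330 higher and 2608 lower.

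**Figure D1:**
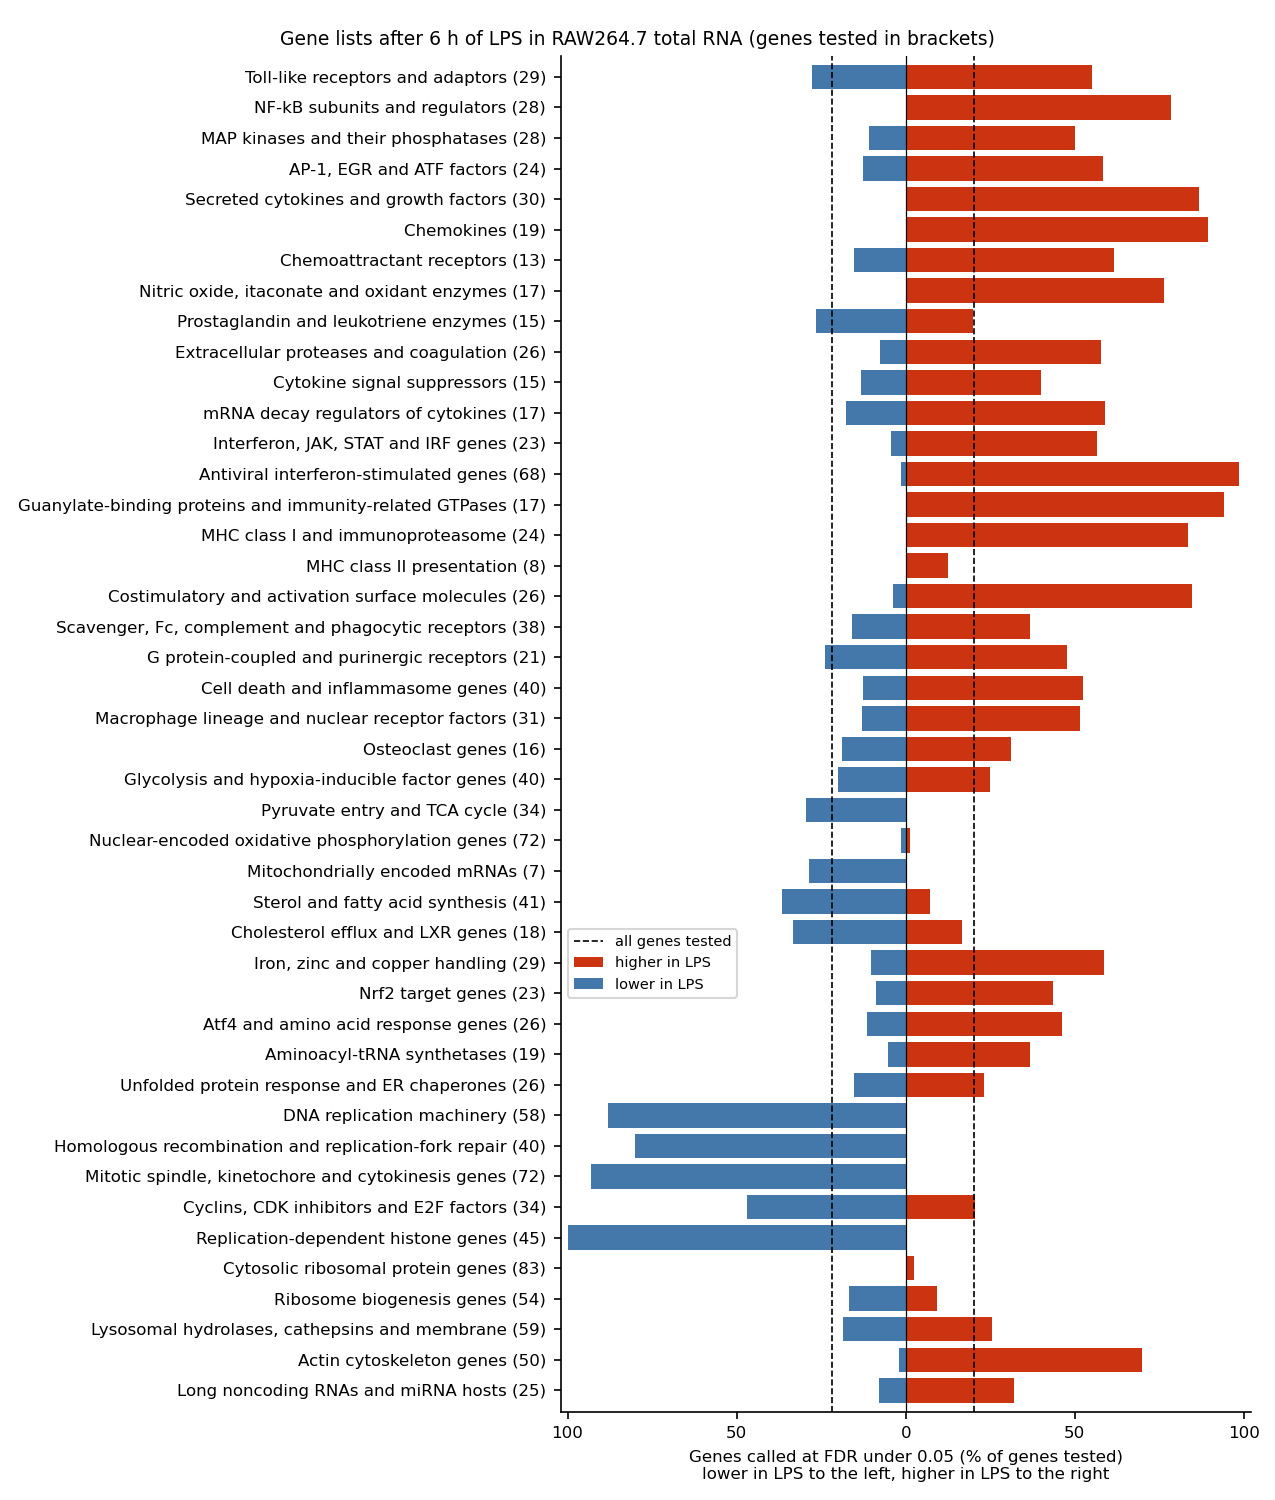
Share of the tested genes of each of the 44 lists that were called higher (red, to the right) or lower (blue, to the left) in LPS, in percent, with the number tested in brackets. Dashed lines mark the shares over all 12369 genes (20.2% higher, 21.7% lower). Cytokine, chemokine, interferon and GTPase lists extend to the right, and replication, repair, mitosis and histone lists extend to the left.

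More of the receptor and adaptor genes of LPS sensing were higher than of all genes tested. Of 29 Toll-like receptor pathway genes tested, 16 were higher (55.2%, against 20.2% of all genes) and 8 lower (27.6%, near the 21.7% of all genes). Their median log2 fold change was 0.74. Tlr4 itself, at chr4:66745783-66849936 (GRCm39), measured 52.3, 60.3, 73.7 and 66.4 CPM in DMSO replicates 1 to 4 and 21.5, 32.8, 31.0 and 31.3 CPM in LPS. Every LPS library was below every DMSO library, and Tlr4 fell by 1.12 on the log2 scale (SE 0.169, FDR 0.000104). The adaptors of the 2 branches rose. Myd88 went from 45.2 ± 12.9 to 143 ± 13.7 CPM (SD, n = 4 each) and Ticam1, which encodes TRIF, from 17.3 ± 2.21 to 58.5 ± 6.19 CPM. Ticam2, which encodes TRAM, the bridge between TLR4 and TRIF, was lower by 1.63 log2 units (FDR 0.000657 in edgeR). Cd14, Tlr2 and the endosomal RNA sensor Tlr3 were higher, with log2 fold changes of 1.45, 1.04 and 3.37. Tlr3 went from 7.18 to 17.1 CPM in the DMSO libraries to 91.0 to 124 CPM in the LPS libraries. Irak2, a kinase of the MyD88 complex, was higher by 2.28 log2 units and Pik3ap1, the adaptor BCAP, by 1.86. Tlr13, a sensor of bacterial ribosomal RNA, was lower by 1.26.

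Most NF-kB genes rose. Of 28 tested, 22 were higher and 0 lower, with a median log2 fold change of 1.86. At an unadjusted p under 0.05, 1 was lower, and DESeq2 called 0 lower. With the replicate number as a block 1 gene was lower, as it was without LPS replicate 2, and scaling by library totals called 2 lower. Both inhibitors and subunits were among those that rose. Nfkbia, the inhibitor IkB-alpha, measured 62.0, 73.8, 81.9 and 74.3 CPM in DMSO and 623, 582, 780 and 718 CPM in LPS. That is 9.26 times the DMSO mean (log2 fold change 3.21 ± 0.151 SE, FDR 2.67e-09), with no overlap between the groups. Tnfaip3, the ubiquitin-editing inhibitor A20, rose from 11.7 ± 1.38 to 328 ± 92.9 CPM (SD, n = 4 each), and LPS replicate 1, at 195 CPM, was the lowest of its group.

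The nuclear IkB proteins Nfkbiz and Bcl3 were also higher, 66.3-fold and 21.7-fold by the ratio of means. The subunits Nfkb1, Nfkb2 and Rel were higher by 2.68, 2.51 and 2.04 log2 units. Rela, the p65 subunit, changed less, from 43.7 ± 2.72 to 61.3 ± 4.89 CPM (SD, n = 4 each; log2 fold change 0.49, FDR 0.00157 in edgeR). Scaled by library totals its log2 fold change was 0.20 and was not called.

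Among 28 MAP kinase genes tested, 14 were higher and 3 lower (median 0.51), and the increases were led by the dual-specificity phosphatases that switch MAP kinases off. Dusp1 measured 7.62 ± 4.08 CPM in DMSO (SD, n = 4) and 174, 194, 194 and 185 CPM in LPS. Its LPS libraries were close to each other and all far above DMSO, at 24.5 times the mean (FDR 9.72e-08). Dusp5 and Dusp2 were higher by 4.46 and 4.12 log2 units, and Dusp5 by 5.08 without DMSO replicate 1. Mapk14, the p38-alpha kinase, fell by 0.59 and the upstream kinase Map3k5 by 1.23. The other lower gene was Map2k6, a kinase that activates p38, which was scarce and went from 178 counts over the DMSO libraries to 3 over the LPS libraries (FDR 7.6e-05 in edgeR). Without DMSO replicate 1 there were 5 lower kinase genes, and 7 when scaled by library totals.

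Of 24 AP-1, EGR and ATF factor genes, 14 were higher and 3 lower (median 1.14). Atf3, a stress-induced repressor, rose from 24.8 ± 6.43 to 320 ± 166 CPM (SD, n = 4 each). Its LPS values were 138 and 221 CPM in replicates 1 and 2 and 475 and 445 CPM in replicates 3 and 4. Batf2 and the early gene Ier3 were higher by 4.90 and 3.44 log2 units. The early growth response gene Egr3 fell by 2.85, while Egr1 did not pass the test. Egr1 measured 85.3, 88.7, 44.6 and 37.0 CPM in DMSO and 85.9, 96.0, 76.8 and 95.9 CPM in LPS (log2 fold change 0.48, FDR 0.121), and the groups overlapped. The fit with the replicate block called it higher (0.56, FDR 0.0274), as did those without DMSO replicate 1 (0.64) or replicate 2 (0.70). Without DMSO replicate 2 this list had 1 lower gene.

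**Figure D2:**
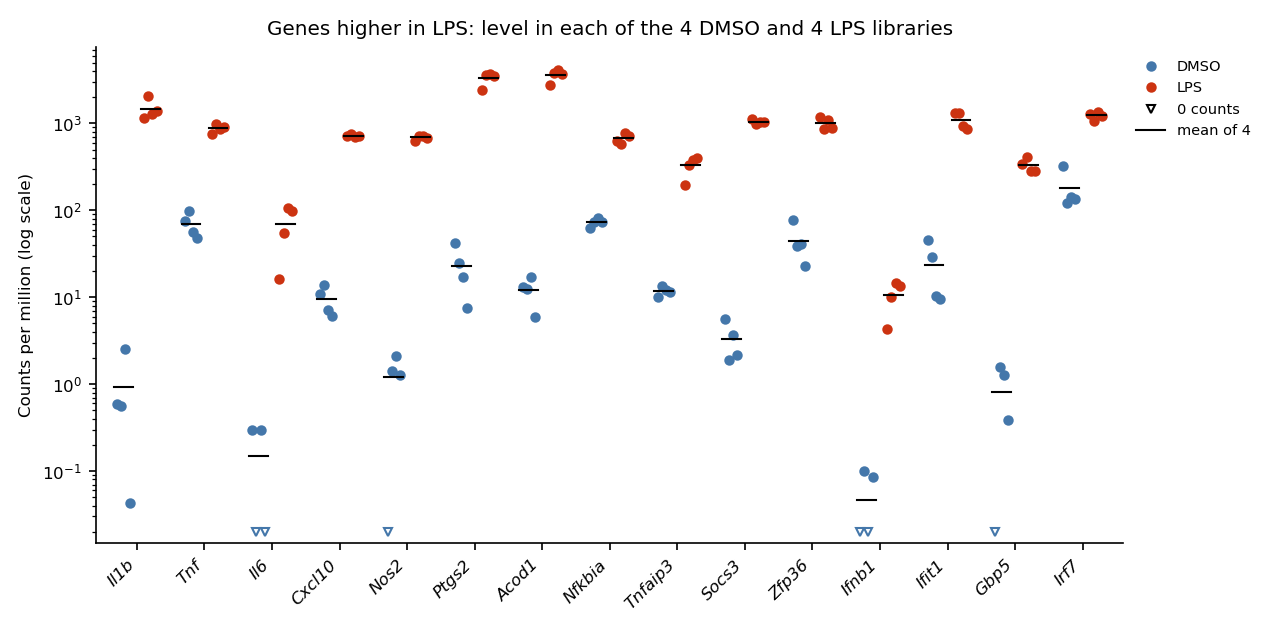
Level of 15 genes in each library on a log axis of CPM, with 4 DMSO libraries (blue) and 4 LPS libraries (red) per gene, black lines for the means and open triangles for libraries with 0 counts. For each of these genes the LPS libraries lie above the DMSO libraries without overlap, from Irf7 (180 to 1235 CPM on average) to Il1b (0.936 to 1469 CPM).

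Cytokine and chemokine genes were nearly all higher, and chemokines had the highest median of the 44 lists. Of 30 cytokine and growth factor genes tested, 26 were higher and 0 lower (median log2 fold change 3.94). Of 19 chemokine genes, 17 were higher and 0 lower (median 5.88). Some members had so few counts in DMSO that they passed the count filter only through libraries with LPS, and could not be called lower. Over the DMSO libraries Csf2 and Ccl17 had 0 counts, Ccl7 11 and Ccl22 14. The called shares and medians of both lists rest in part on such genes. No gene of either list was lower at an unadjusted p under 0.05 or by DESeq2 (0 in each), and the replicate block added 1 lower gene to each. Together the 60 genes of both lists, including those too low to test, took 0.163% ± 0.0612 of all counts under DMSO (SD, n = 4) and 2.40% ± 0.246 under LPS. The shares did not overlap, with an exact two-sided permutation p of 0.0286, the smallest that 4 libraries against 4 allow (0.0571 after adjustment over 6 shares). Sign flips of the 4 same-numbered pairs cannot go below an exact p of 0.125, which this share and those of antiviral, histone and mitochondrially encoded genes reached. The lists were chosen with earlier results of these data known. The p-values of the cytokine, antiviral and histone shares are therefore no independent support.

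Tnf, at chr17:35418357-35420983, encodes tumour necrosis factor. It measured 75.3, 98.9, 57.0 and 47.4 CPM in DMSO and 761, 973, 863 and 903 CPM in LPS, a 12.6-fold rise (log2 3.65 ± 0.241 SE, FDR 4.23e-08). Il1b, at chr2:129206490-129213059, measured 0.591, 0.564, 2.54 and 0.0428 CPM in DMSO and 1166, 2042, 1294 and 1375 CPM in LPS. Il6 measured 0.295, 0, 0.297 and 0 CPM in DMSO and 16.0, 54.5, 106 and 99.2 CPM in LPS. For none of these 3 genes did the groups overlap, and LPS replicate 1 was the lowest of its group for each. The anti-inflammatory cytokine gene Il10 was also higher, from 0.0848 to 0.886 CPM in the DMSO libraries to 28.3 to 51.5 CPM in the LPS libraries. Csf2, which encodes GM-CSF, had 0 counts in the 4 DMSO libraries and 1107 in the LPS libraries, so it was at least 332-fold higher against a floor of 3 counts over the DMSO group. Csf3, the granulocyte factor, was higher by 9.82 and Il1a by 10.41 log2 units. With DMSO levels this near 0, single libraries moved the fitted change. Without DMSO replicate 3 it was 10.72 for Csf3, 11.76 for Il1a, 12.02 for Il1b (10.51 with all libraries) and 11.48 for Il6 (9.33 with all, and 8.69 without DMSO replicate 2).

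The chemokine genes include attractants of monocytes, neutrophils and T cells. Cxcl10, a T cell attractant and interferon target, measured 10.9, 13.9, 7.17 and 6.03 CPM in DMSO and 708, 765, 701 and 722 CPM in LPS. Its LPS libraries lay close together and the ratio of the means was 76.1. Ccl22 rose from 0.128 ± 0.135 to 136 ± 52.4 CPM, Ccl5 from 2.74 ± 1.85 to 1686 ± 233 CPM and Ccl7 from 0.101 ± 0.103 to 54.1 ± 22.7 CPM (SD, n = 4 each). Their log2 fold changes of 9.58, 9.18 and 8.59 became 10.34 for Ccl22 and 9.31 for Ccl7 without DMSO replicate 2 and 9.84 for Ccl5 without DMSO replicate 3. Of 13 genes for receptors of such attractants, 8 were higher (61.5%) and 2 lower (15.4%, under the 21.7% of all genes), with a median of 1.95. Ccrl2 was higher by 5.70, Ccr1 by 3.64 and the complement receptor C3ar1 by 2.42. Cx3cr1, the fractalkine receptor of resident macrophages, fell from 131 ± 21.9 to 39.5 ± 16.9 CPM.

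Promoters of a few of these genes are shown because they hold the motifs named for the pathways above. They are the 250 bases before the RefSeq start site (GRCm38.p6), 5′ to 3′ on the strand of the gene. They were picked after the values had been seen. In Nfkbia (chr12:55492648-55492897, minus strand), Il6 (chr5:30012864-30013113, plus strand) and Cxcl10 (chr5:92348890-92349139, minus strand) capitals mark matches to the NF-kB consensus on either strand, and in Cxcl10 also GAAA, any 2 bases and GAAA, the core of interferon response elements. In Ifit1 (chr19:34640639-34640888, plus strand), an interferon-stimulated gene described below, capitals mark that core on the reverse strand.
Nfkbia: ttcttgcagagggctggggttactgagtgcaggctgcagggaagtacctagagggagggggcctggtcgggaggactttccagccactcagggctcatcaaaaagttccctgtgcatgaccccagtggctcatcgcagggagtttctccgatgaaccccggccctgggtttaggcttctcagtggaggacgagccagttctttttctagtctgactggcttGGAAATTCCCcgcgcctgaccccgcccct
Il6: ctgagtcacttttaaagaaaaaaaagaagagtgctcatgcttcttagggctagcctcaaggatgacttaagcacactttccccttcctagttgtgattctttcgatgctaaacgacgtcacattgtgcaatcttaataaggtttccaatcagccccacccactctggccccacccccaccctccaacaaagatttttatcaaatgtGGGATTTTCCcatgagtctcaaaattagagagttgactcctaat
Cxcl10: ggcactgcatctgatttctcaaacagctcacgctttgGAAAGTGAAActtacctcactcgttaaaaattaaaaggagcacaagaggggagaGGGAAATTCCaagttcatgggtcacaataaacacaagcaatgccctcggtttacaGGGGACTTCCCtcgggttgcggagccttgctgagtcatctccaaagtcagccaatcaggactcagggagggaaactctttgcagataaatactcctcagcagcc
Ifit1: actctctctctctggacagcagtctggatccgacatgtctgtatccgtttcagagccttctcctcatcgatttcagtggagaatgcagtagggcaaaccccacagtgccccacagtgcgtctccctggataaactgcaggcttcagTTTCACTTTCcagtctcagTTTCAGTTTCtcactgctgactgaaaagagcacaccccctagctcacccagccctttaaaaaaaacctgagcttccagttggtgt
The capitals nearest the start site of Cxcl10 hold a pair of overlapping NF-kB matches. The NF-kB consensus was found in 7.25% of all 32851 RefSeq promoters and in 8.8% of the 11472 promoters of genes tested. It was in 12.2% of the promoters of genes at least 2-fold higher and in 8.63% of those at least 2-fold lower. By list, it was in 16 of 35 promoters of NF-kB genes (45.7%), in 4 of 14 of chemokines (28.6%) and in 7 of 28 of cytokines (25%). The interferon response core was in 2.98% of all RefSeq promoters, in 2.96% of those of genes tested, in 9.11% of those of genes at least 2-fold higher and in 1.92% of those at least 2-fold lower. Of 69 promoters of antiviral interferon-stimulated genes, 26 (37.7%) held it. TGANTCA, the AP-1 site, was in 6.75% of all RefSeq promoters, 4.53% of those of genes tested, 8.71% of the higher group and 3.47% of the lower group. TGACGTCA, the cyclic AMP response element, was in 1.55% of all RefSeq promoters and 2.75% of those of genes tested, and the higher group (2.32%) and the lower group (2.14%) both lay below the latter share. A match is a run of letters and not a shown site of binding.

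Enzymes that make nitric oxide and itaconate rose steeply. Of 17 genes for these and for oxidant enzymes, 13 were higher and 0 lower (median 1.46), with 0 lower at an unadjusted p under 0.05, 0 by DESeq2 and 1 with the replicate block. Nos2, the inducible nitric oxide synthase at chr11:78811613-78851080, measured 0, 1.43, 2.08 and 1.28 CPM in DMSO and 632, 717, 724 and 687 CPM in LPS. Acod1, which makes itaconate from the TCA intermediate cis-aconitate, measured 5.86 to 16.9 CPM in DMSO and 2803, 3771, 4107 and 3738 CPM in LPS. Both groups were tight against the distance between them, with ratios of means of 576 and 301. Slc7a2, the carrier of arginine, had 1 count in all DMSO libraries and 1360 in LPS, a ratio of 1224 with a counting interval of 219 to 48389. Its LPS level was 29.7 CPM in replicate 2 and 9.73 to 9.94 CPM in the others. Its fitted log2 fold change was 9.65, but 9.06 without that library and 11.25 without DMSO replicate 3, which held the 1 count.

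Of 15 prostaglandin and leukotriene genes, 3 were higher and 4 lower (20.0% and 26.7%, near the shares of all genes; median -0.22). Ptgs2, the inducible cyclooxygenase, measured 42.2, 24.9, 17.2 and 7.48 CPM in DMSO and 2439, 3620, 3700 and 3467 CPM in LPS (log2 fold change 7.24 ± 0.464 SE). Its span overlaps that of its antisense gene Ptgs2os. Since the strand setting of the counting is not stated, reads from bases that both genes share cannot be told apart. The spans of Il1b and Il1bos, of Cxcl10 and Art3 and of Irf7 and Phrf1 overlap as well. Of the 204 genes that the naming rule chose, 126 have a span that overlaps another annotated gene on the other strand. For 44 it overlaps one on the same strand, as for Ticam2 and Tmed7 or Slc5a3 and Mrps6. No strand setting would separate shared bases there. Spans run from gene start to gene end with introns, and whether exons overlap was not examined. Hpgds, the hematopoietic prostaglandin D synthase, fell by 1.52 log2 units. The number of lower genes was 1 without DMSO replicate 4 or LPS replicate 2, 2 without DMSO replicate 3 or LPS replicate 4, and 2 with RLE scaling.

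Extracellular proteases, their inhibitors and coagulation genes were mostly higher, 15 of 26 against 2 lower (median 1.82). Mmp9, gelatinase B, measured 9.15, 2.06, 4.24 and 5.39 CPM in DMSO and 117, 59.5, 111 and 93.9 CPM in LPS. Serpinb2, the plasminogen activator inhibitor 2, went from 0.0719 ± 0.123 to 98.1 ± 41.1 CPM and Timp1, an inhibitor of metalloproteases, from 0.0509 ± 0.0418 to 22.5 ± 1.23 CPM (SD, n = 4 each). Mmp14, a membrane-bound metalloprotease, was higher by 6.39 log2 units (7.15 without DMSO replicate 2), and Serpinb2 by 10.04 (12.02 without DMSO replicate 3). Adam10, a sheddase, fell by 0.95. The lower genes were 4 with the replicate block and 4 without LPS replicate 1.

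Genes that restrain cytokines were higher in part. Of 15 suppressors of cytokine signalling, 6 were higher and 2 lower (median 0.27, or -0.02 when scaled by library totals, with 3 higher and 4 lower). Without any 1 of the replicates other than DMSO replicate 1, 1 gene was lower. Socs3 measured 5.61, 1.89, 3.65 and 2.18 CPM in DMSO and 1119, 975, 1038 and 1036 CPM in LPS, a 313-fold difference with an FDR of 4.47e-10. Socs1 was higher by 2.86 log2 units, with 12.5 and 11.4 CPM in LPS replicates 1 and 2 and 5.81 and 5.88 CPM in replicates 3 and 4. Inpp5d, the lipid phosphatase SHIP1, fell by 1.11.

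Of 17 regulators of cytokine mRNA decay, 10 were higher and 3 lower (median 0.48), and the lower count was 1 without LPS replicate 3 or LPS replicate 4. Zfp36, which encodes tristetraprolin, a protein that binds AU-rich mRNA and brings it to decay, measured 76.5, 39.2, 40.7 and 22.7 CPM in DMSO and 1188, 864, 1102 and 897 CPM in LPS. Zc3h12a, the RNase Regnase-1, rose from 8.19 ± 2.82 to 180 ± 11.9 CPM (SD, n = 4 each) and Arid5a, which protects Il6 mRNA, from 3.46 ± 3.04 to 33.3 ± 9.57 CPM. Elavl1, which encodes HuR, the RNA-binding protein studied in the series, was not called (log2 fold change 0.24) and is named after its value was seen.

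Interferon beta and most antiviral genes rose. Ifnb1, the interferon beta gene at chr4:88440262-88441011, measured 0, 0.0996, 0 and 0.0855 CPM in DMSO and 4.36, 10.0, 14.6 and 13.5 CPM in LPS (log2 fold change 7.30 ± 1.10 SE, FDR 0.000102). LPS replicate 1 was the lowest of its group. Of 23 interferon, JAK, STAT and IRF genes, 13 were higher and 1 lower (median 0.84). Irf7 went from 180 ± 94.9 to 1235 ± 113 CPM (SD, n = 4 each), with DMSO replicate 1 at 322 CPM and the other DMSO libraries at 121 to 144 CPM. Jak2 was higher by 2.90, Stat2 by 2.84 and Irf1 by 2.01 log2 units. The receptor chain Ifngr1 fell by 0.86.

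Antiviral interferon-stimulated genes were called almost without exception, 67 of 68 higher and 1 lower (median 2.50). Ifit1, which binds foreign RNA ends, measured 46.1, 29.1, 10.3 and 9.49 CPM in DMSO and 1310, 1306, 938 and 854 CPM in LPS. The DMSO libraries of replicates 1 and 2 were above those of 3 and 4, and all were far below LPS. Ifit1bl1, Slfn1 and Ifi205 had the largest increases among those the naming rule admits, with log2 fold changes of 8.11, 7.38 and 7.36 (8.05 for Ifi205 without DMSO replicate 2). The lower gene was Slfn3, a Schlafen family member. It measured 17.4, 14.5, 15.4 and 12.9 CPM in DMSO and 1.64, 2.45, 1.42 and 1.27 CPM in LPS, so it fell by 3.13 with no overlap. The 68 genes and Ifitm1, which was too low to test, took 0.508% ± 0.147 of counts in DMSO and 3.02% ± 0.269 in LPS (exact permutation p = 0.0286, adjusted 0.0571). As for the cytokine share, the list was chosen with earlier results known, so this p-value is no independent support.

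The GTPases that attack vacuoles of intracellular microbes were higher in 16 of 17 cases, with 0 lower (median 5.61). None was lower at an unadjusted p under 0.05 (0) or by DESeq2 (0). Gbp5 measured 0, 1.56, 1.27 and 0.385 CPM in DMSO and 343, 412, 281 and 284 CPM in LPS. Gbp2b and Gbp2 were higher by 7.98 and 7.73 log2 units, and Gbp2b by 8.58 without DMSO replicate 2. Members of these families have near-identical copies, so the split of reads between paralogs is uncertain.

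Most genes of class I antigen presentation rose. Of 24 MHC class I and immunoproteasome genes, 20 were higher and 0 lower (median 1.44; 0 lower at an unadjusted p under 0.05 and 0 by DESeq2). Tap1, the peptide transporter, went from 35.4 ± 5.30 to 306 ± 23.7 CPM and Nlrc5, the class I transactivator, from 18.6 ± 5.15 to 154 ± 5.89 CPM (SD, n = 4 each). Tap1 overlaps Psmb9 on the other strand. Of 8 class II pathway genes tested, 1 was higher and 0 lower (median 0.12, or -0.16 when scaled by library totals, with 0 higher and 3 lower). At an unadjusted p under 0.05, 1 was lower, DESeq2 called 1 lower, and the replicate block gave 3 higher and 3 lower. The called gene was Rfx5, whose call was lost without any 1 of the DMSO replicates (FDR 0.0509 to 0.114) or without LPS replicate 1 (FDR 0.129). Without LPS replicate 1 there were 2 lower genes and without DMSO replicate 4 there was 1. H2-Ab1, the class II beta chain, stayed below the count filter at 0.217 ± 0.172 and 0.233 ± 0.128 CPM. H2-Aa, H2-Eb1 and Ciita were below it too (named after their values were seen).

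Costimulatory and activation molecules of the surface were higher in 22 of 26 cases and lower in 1 (median 2.31). Cd40 measured 12.4, 3.45, 4.75 and 3.76 CPM in DMSO and 633, 483, 441 and 460 CPM in LPS. Cd86, a ligand of CD28, measured 3.54, 0.830, 1.95 and 1.62 CPM in DMSO and 17.0, 12.2, 37.3 and 32.2 CPM in LPS, with the LPS libraries of replicates 3 and 4 above those of 1 and 2. Cd69 and Slamf7 were higher by 8.24 and 7.47 log2 units. Tnfrsf11a, which encodes RANK, the receptor of the osteoclast factor RANKL, fell from 154 ± 67.6 to 52.6 ± 20.0 CPM. The lower count was 2 with the replicate block and 2 without LPS replicate 1.

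Of 38 scavenger, Fc and complement receptor genes, 14 were higher (36.8%) and 6 lower (15.8%, under the 21.7% of all genes), with a median of 0.50. The IgG receptors Fcgr4 and Fcgr1 were higher by 4.16 and 3.06 log2 units, and the integrin Itga5 by 2.74. Itga5 measured 199, 123, 74.0 and 60.9 CPM in DMSO and 1263, 818, 481 and 468 CPM in LPS, with replicates 1 and 2 above 3 and 4 in both groups. Of the list's other integrin genes, Itga4 fell from 1412 ± 199 to 504 ± 66.4 CPM and Itgb5 from 47.2 ± 8.34 to 13.2 ± 2.37 CPM (SD, n = 4 each). Itgam rose from 19.7 ± 3.33 to 56.5 ± 9.22 CPM and Itgal from 19.1 ± 8.18 to 89.3 ± 18.0 CPM, both named after their values were seen. Of 21 G protein-coupled and purinergic receptor genes, 10 were higher (47.6%) and 5 lower (23.8%, near the 21.7% of all genes). The median was 0.23, or -0.04 when scaled by library totals, with 8 higher and 8 lower. Adora2b, an adenosine receptor, went from 1.96 ± 1.28 to 83.3 ± 9.21 CPM, while Gpr183, an oxysterol receptor, went from 33.6 ± 2.91 to 2.56 ± 0.839 CPM.

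Of 40 cell death and inflammasome genes, 21 were higher and 5 lower (median 0.54). The count of lower genes was 8 without DMSO replicate 1 and 8 when scaled by library totals, and 3 without DMSO replicate 2, DMSO replicate 4, LPS replicate 3 or LPS replicate 4. The survival gene Bcl2a1a, which has close paralogs, was higher by 7.24 log2 units (7.86 without DMSO replicate 4). Traf1 was higher by 4.42 and Casp4, which encodes caspase-11, the intracellular LPS sensor, by 3.86. Pmaip1, the BH3-only protein NOXA, fell by 1.13. Pycard, the inflammasome adaptor ASC that RAW264.7 cells are known to lack, measured 0, 0.697, 0.551 and 0.257 CPM in DMSO and 1.07, 0.582, 0.178 and 0.199 CPM in LPS, and was not called (FDR 0.899).

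Lineage factors were higher in 16 of 31 cases and lower in 4 (median 0.55). Spi1, which encodes PU.1, the master factor of the myeloid lineage, went from 316 ± 33.1 to 508 ± 23.1 CPM (SD, n = 4 each). Notch1, Cebpd and Maf were higher by 5.67, 4.19 and 2.96 log2 units. Cebpa moved against its relative Cebpd: it measured 31.9, 22.6, 14.9 and 16.5 CPM in DMSO and 6.67, 4.87, 5.46 and 4.69 CPM in LPS, with no overlap.

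Of 16 osteoclast genes, 5 were higher (31.2%) and 3 lower (18.8%, near the 21.7% of all genes). The median was 0.24, or -0.06 when scaled by library totals, with 3 higher and 3 lower. With the replicate block 5 were lower. Csf1r, the receptor of the macrophage growth factor CSF-1, measured 824, 826, 1061 and 963 CPM in DMSO and 426, 261, 216 and 222 CPM in LPS. Every LPS library was below every DMSO library, and it fell by 1.71 log2 units (SE 0.275, FDR 0.000188). Adgre1, the F4/80 surface marker, was higher by 0.72, a call lost when scaled by library totals (0.43, FDR 0.142).

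Of 40 glycolysis and hypoxia-inducible factor genes, 10 were higher and 8 lower, near the shares of all genes, 20.2% and 21.7% (median 0.01, or -0.27 when scaled by library totals, with 7 higher and 12 lower). Slc2a1, the glucose carrier GLUT1, measured 88.9, 104, 77.9 and 84.9 CPM in DMSO and 362, 352, 324 and 296 CPM in LPS. Pfkfb3, which makes the activator of phosphofructokinase, measured 18.0, 20.1, 18.9 and 20.4 CPM in DMSO and 151, 228, 191 and 210 CPM in LPS. Both sets of LPS libraries were far above DMSO, by 3.75 and 10.1 times the mean. Hk2, hexokinase 2, was higher by 1.11 log2 units. Hif1a was higher by 0.54 with overlapping groups, a call lost when scaled by library totals (0.25). Ldha, lactate dehydrogenase A, measured 721, 909, 780 and 874 CPM in DMSO and 832, 917, 798 and 784 CPM in LPS, with a log2 fold change of 0.02 ± 0.138 SE. Pdk1, which inhibits pyruvate dehydrogenase, and Egln1, which marks HIF-1 alpha for degradation, fell by 1.74 and 1.29.

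In the TCA cycle and pyruvate entry, 0 of 34 genes were higher and 10 were lower (29.4%, against 21.7% of all genes), with a median of -0.19. No gene was higher at an unadjusted p under 0.05 (0) or by DESeq2 (0), while the replicate block added 1. Scaling by library totals gave 26 lower genes. Idh1, the cytosolic isocitrate dehydrogenase, measured 119, 149, 187 and 218 CPM in DMSO and 53.9, 73.5, 69.6 and 74.9 CPM in LPS, and fell by 1.31 log2 units without overlap. Pdp1, the phosphatase that activates pyruvate dehydrogenase, fell by 0.94. Sdha, of succinate dehydrogenase, went from 170 ± 6.44 to 148 ± 10.3 CPM (SD, n = 4 each). It was not called (FDR 0.116 in edgeR), but was with the replicate block (-0.20, FDR 0.0308) and when scaled by library totals (-0.49).

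Nuclear genes of oxidative phosphorylation moved little. Of 72 tested, 1 was higher, Ndufs4, and 1 was lower, Ndufs7 (median 0.06, or -0.22 when scaled by library totals, with 0 higher and 12 lower). The replicate block called 10 higher and 3 lower, and leaving out 1 library called 1 to 3 higher and 1 to 2 lower. Over all genes 42.0% were called. Of 13 mRNAs encoded in the mitochondrial genome 7 could be tested, since the other 6 had 0 to 14 counts in all 8 libraries. Of these, 0 were higher, 2 were lower (median -0.53), and mt-Cytb went from 3602 ± 769 to 2211 ± 278 CPM, a call lost without DMSO replicate 2 (-0.54, FDR 0.0562). The lower count was 5 with the replicate block, 0 without DMSO replicate 2 and 1 without DMSO replicate 3, LPS replicate 1, LPS replicate 3 or LPS replicate 4. The 13 mRNAs together took 1.91%, 2.43%, 1.94% and 1.59% of counts in DMSO and 1.18%, 1.57%, 1.26% and 1.15% in LPS, without overlap (unadjusted exact permutation p = 0.0286, n = 4 each). Almost all of these counts came from the 7 tested mRNAs. Over the 8 libraries mt-Co2 held 14 counts and mt-Co3 held 0, beside 1116633 for mt-Co1. Why the 6 untested mRNAs held so few counts was not tested. All mitochondrially encoded genes, mainly the ribosomal RNAs, took 19.2% ± 3.74 and 15.4% ± 2.43, a difference that did not pass the test (exact permutation p = 0.171, n = 4 each). The share was lower in LPS in 4 of 4 same-numbered pairs, with an exact sign-flip p of 0.125, the smallest possible.

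Sterol and fatty acid synthesis was lower in part: 15 of 41 genes were lower and 3 higher (median -0.42), or 25 lower and 2 higher when scaled by library totals. Scd2, a stearoyl-CoA desaturase, measured 300, 354, 637 and 598 CPM in DMSO and 36.3, 47.2, 41.3 and 44.3 CPM in LPS. It was 11.2 times lower, although its DMSO libraries differed among themselves, with replicates 3 and 4 the higher. Elovl6, which elongates fatty acids, fell by 2.73 log2 units. Of 18 cholesterol efflux and LXR genes, 3 were higher and 6 lower (median -0.06, but 0.16 without DMSO replicate 1 with 4 higher and 4 lower). Abca1, the cholesterol exporter, rose from 12.2 ± 1.28 to 82.3 ± 12.2 CPM (SD, n = 4 each), and Scarb1, the HDL receptor, fell by 1.05.

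Metal handling genes were mostly higher where called. Of 29 iron, zinc and copper genes, 17 were higher and 3 lower (median 0.80), with 5 lower under the replicate block. Lcn2, which binds bacterial siderophores, measured 0, 0, 0.382 and 0.0428 CPM in DMSO and 91.7, 140, 117 and 97.2 CPM in LPS. Its log2 fold change was 9.73, but 12.20 without DMSO replicate 3 and 9.10 without DMSO replicate 2. Cp, ceruloplasmin, and Slc31a2, a copper carrier, were higher by 3.19 and 2.83 log2 units. Hmox1, heme oxygenase 1, was higher by 0.76 with overlapping groups, and was not called when scaled by library totals (0.45). Steap3, an iron reductase, fell by 2.36.

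Stress programs were called unevenly. Of 26 Atf4 and amino acid response genes, 12 were higher and 3 lower (median 0.70). Nupr1 rose from 13.7 ± 4.14 to 299 ± 81.9 CPM (SD, n = 4 each), Gadd45a was higher by 3.11 and Slc7a11, the cystine carrier, by 2.65 log2 units. Of 23 Nrf2 targets, 10 were higher and 2 lower (median 0.03), but 2 higher and 3 lower when scaled by library totals, with a median of -0.27. With the replicate block 5 were lower. Leaving out DMSO replicate 3 or 4 or LPS replicate 2, 3 or 4 left 1 lower. Gclc, which limits glutathione synthesis, fell by 1.79. Of 19 aminoacyl-tRNA synthetases 7 were higher and 1 lower (median 0.25, or -0.03 with 3 higher and 4 lower when scaled by library totals), and the replicate block called 13 higher and 2 lower. Without DMSO replicate 1, 2 were lower. Of 26 unfolded protein response genes 6 were higher and 4 lower, near the shares of all genes (23.1% and 15.4%; median 0.05, or -0.24 with 3 higher and 6 lower when scaled by library totals), led by Dnajb9 at 1.74.

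**Figure D3:**
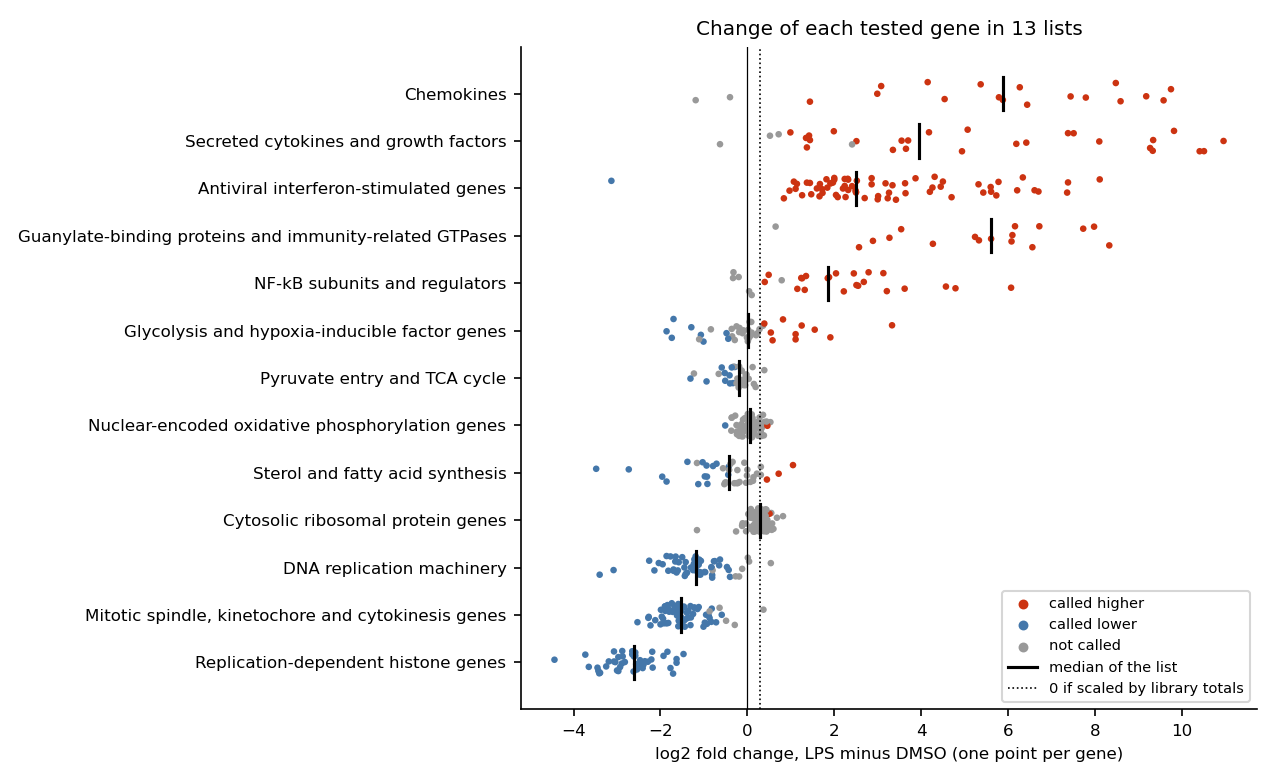
log2 fold change (LPS minus DMSO) of each tested gene in 13 lists, one point per gene, red for called higher, blue for called lower and grey for not called, with a black bar at the list's median. The dotted line marks the value that would read 0 if the libraries were scaled by their totals. Medians run from 5.88 for chemokines to -2.62 for histone genes, and the 83 ribosomal protein genes sit close together around 0.30.

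Most DNA replication genes fell. Of 58 tested, 51 were lower and 0 higher (median -1.18), against 21.7% lower among all genes. At an unadjusted p under 0.05, 1 was higher, DESeq2 called 1 higher, as did the replicate block and the fit without DMSO replicate 2. Mcm2, a subunit of the replicative helicase at chr6:88860452-88875762, measured 219, 138, 155 and 148 CPM in DMSO and 84.8, 47.4, 32.3 and 38.1 CPM in LPS. Pcna, the sliding clamp, measured 219, 203, 160 and 167 CPM in DMSO and 113, 113, 98.5 and 99.8 CPM in LPS. Neither gene's groups overlapped, and they fell by 1.70 and 0.82 log2 units. Tk1, thymidine kinase, and Ung, which removes uracil from DNA, changed more. Tk1 went from 51.7 ± 9.20 to 6.15 ± 2.43 CPM and Ung from 20.7 ± 3.72 to 1.96 ± 1.11 CPM (SD, n = 4 each).

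Of 40 genes of homologous recombination and fork repair, 32 were lower and 0 higher (median -1.32; 0 higher at an unadjusted p under 0.05 and 0 by DESeq2). Exo1, a DNA end resection nuclease, measured 25.7, 24.3, 30.9 and 25.2 CPM in DMSO and 4.47, 5.82, 3.20 and 3.98 CPM in LPS. Chek2, a checkpoint kinase, went from 15.7 ± 2.33 to 2.62 ± 0.396 CPM (SD, n = 4 each). Both fell by more than the list's median.

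Of 72 mitotic genes, 67 were lower and 0 higher (median -1.52; 0 higher at an unadjusted p under 0.05 and 0 by DESeq2). The replicate block and the fit without DMSO replicate 1 each called 1 higher. The 5 not called were Pttg1, Bub3, Ckap2l, Spc24 and Ube2c, named after their values were seen. Aspm, which focuses spindle poles, measured 77.4, 73.9, 67.6 and 70.1 CPM in DMSO and 20.1, 14.9, 6.88 and 8.31 CPM in LPS. Espl1, the separase, fell by 2.28 log2 units. Cdk1, the mitotic kinase, changed less: it measured 58.8, 111, 69.8 and 87.8 CPM in DMSO and 49.7, 64.2, 49.9 and 55.5 CPM in LPS, and the groups overlapped. Its fall of 0.59 (FDR 0.0413) was not called with RLE scaling (FDR 0.0578), in a fit of these 8 libraries alone (FDR 0.0504) or without DMSO replicate 2 (-0.40), DMSO replicate 4 (-0.55) or LPS replicate 1 (-0.54), 3 (-0.54) or 4 (-0.59).

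Of 34 cyclin, CDK inhibitor and E2F genes, 16 were lower and 7 higher (47.1% and 20.6%, the latter near the share of all genes; median -0.55). E2f1, which turns on replication genes, measured 44.6, 43.1, 35.8 and 37.1 CPM in DMSO and 6.36 to 15.2 CPM in LPS. In LPS the libraries of replicates 1 and 2 were above those of 3 and 4. E2f8, a repressor of the same family, went from 71.3 ± 3.02 to 9.76 ± 3.85 CPM and E2f2 from 20.2 ± 7.36 to 2.79 ± 1.06 CPM (SD, n = 4 each). Cdkn1a, the CDK inhibitor p21, rose from 104 ± 14.7 to 254 ± 7.81 CPM. Mxd1, an antagonist of Myc, rose from 8.13 ± 4.26 to 425 ± 64.4 CPM. Myc rose as well, with a wide spread: it measured 27.5, 7.24, 1.57 and 1.41 CPM in DMSO and 189, 74.2, 37.6 and 34.9 CPM in LPS (log2 fold change 3.55 ± 0.855 SE, FDR 0.00403), or 4.58 without DMSO replicate 1 and 2.80 without LPS replicate 1. Its levels in replicates 1 and 2 were above those in 3 and 4 within each group. Ccnd1, cyclin D1, was not called, at 251 ± 39.1 and 249 ± 51.0 CPM.

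**Figure D4:**
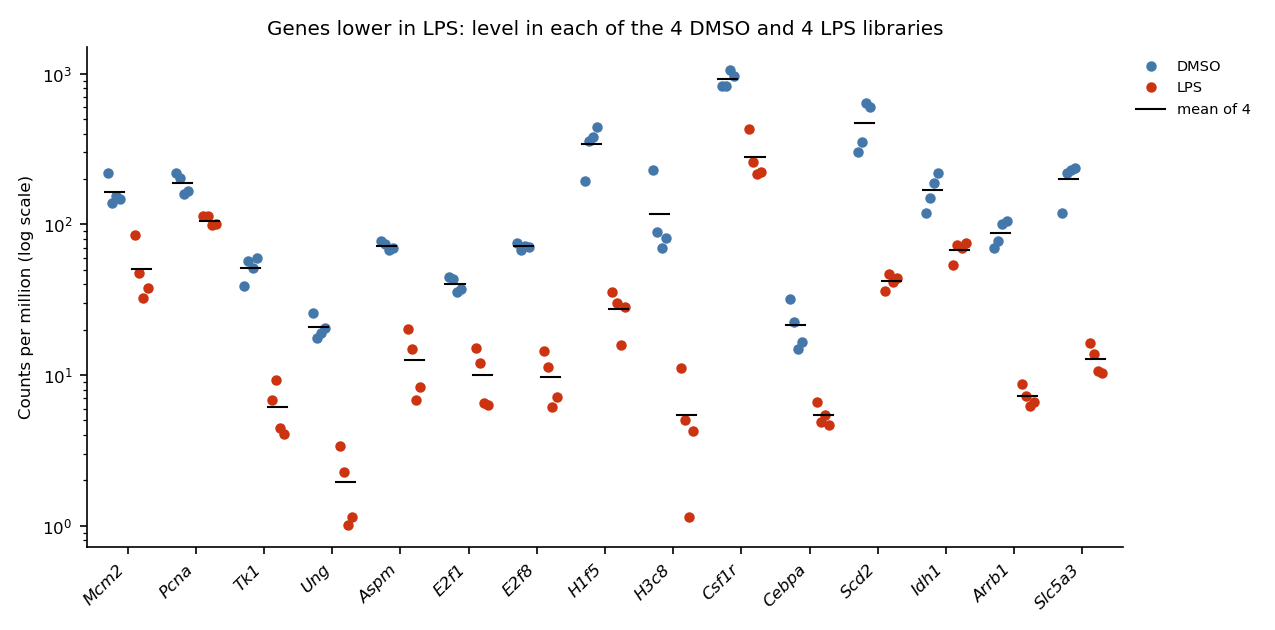
Level of 15 genes in each library on a log axis of CPM, with 4 DMSO libraries (blue) and 4 LPS libraries (red) per gene and black lines for the means. For each of these genes the LPS libraries lie below the DMSO libraries without overlap, from Pcna (187 to 106 CPM on average) to H3c8 (117 to 5.40 CPM).

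Replication-dependent histone genes had the lowest median of the 44 lists. These genes are expressed in S phase and their mRNAs end in a stem-loop in place of a poly(A) tail. Of 55 genes 45 passed the count filter, and all 45 were lower (median -2.62; 0 higher at an unadjusted p under 0.05 and 0 by DESeq2). All 45 stayed lower with RLE scaling, library totals, the replicate block and without DMSO replicate 1. The 55 genes took 0.955%, 0.845%, 0.953% and 1.00% of counts in DMSO and 0.198%, 0.146%, 0.103% and 0.142% in LPS (exact permutation p = 0.0286, adjusted 0.0571). This p-value too comes from a list chosen with earlier results known. H1f5, a linker histone at chr13:21964053-21964795, measured 194, 355, 381 and 441 CPM in DMSO and 35.6, 29.9, 15.8 and 28.2 CPM in LPS. H3c8, a core histone H3 gene, measured 228, 89.5, 69.3 and 81.6 CPM in DMSO and 11.1, 5.07, 1.15 and 4.29 CPM in LPS. For H3c8 replicate 1 was the highest of each group, and the ratio of means was 21.7. Its fall of 4.44 log2 units was -5.03 without LPS replicate 1. Copies of one histone type have near-identical coding sequences, so the split of reads between single genes is uncertain. How reads that match several copies were counted is not given here, so the summed share may be affected too.

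Promoters of 3 genes of replication and division are shown as above (RefSeq, GRCm38.p6, the 250 bases before the start site). They hold motifs known for S phase and mitotic genes and were picked after the values had been seen. The values of Mcm6 are not given here, and the call of Cdk1 was lost in several fits, as stated above. Capitals mark the E2F forms (TTT, then GG, CG or CC, then CGC) in Mcm6 (chr1:128359706-128359955, minus strand), CCAAT and TTTGAA in Cdk1 (chr10:69352913-69353162, minus strand) and CCAAT in H3c8 (chr13:23535168-23535417, plus strand), each on either strand. Not every match is marked: Cdk1 also holds an E2F form (-131 to -124), and Mcm6 holds CCAAT on the reverse strand (-57 to -53 and -14 to -10). CCAAT binds the factor NF-Y, and TTTGAA is the core of the cell cycle homology region.
Mcm6: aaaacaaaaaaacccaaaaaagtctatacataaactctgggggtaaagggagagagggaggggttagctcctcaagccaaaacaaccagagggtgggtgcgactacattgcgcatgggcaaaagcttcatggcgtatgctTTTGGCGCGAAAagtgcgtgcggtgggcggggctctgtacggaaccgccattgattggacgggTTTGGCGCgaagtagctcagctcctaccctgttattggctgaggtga
Cdk1: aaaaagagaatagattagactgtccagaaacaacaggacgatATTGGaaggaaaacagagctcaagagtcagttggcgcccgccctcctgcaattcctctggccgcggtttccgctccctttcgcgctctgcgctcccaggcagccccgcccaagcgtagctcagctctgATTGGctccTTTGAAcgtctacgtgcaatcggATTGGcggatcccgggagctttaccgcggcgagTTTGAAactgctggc
H3c8: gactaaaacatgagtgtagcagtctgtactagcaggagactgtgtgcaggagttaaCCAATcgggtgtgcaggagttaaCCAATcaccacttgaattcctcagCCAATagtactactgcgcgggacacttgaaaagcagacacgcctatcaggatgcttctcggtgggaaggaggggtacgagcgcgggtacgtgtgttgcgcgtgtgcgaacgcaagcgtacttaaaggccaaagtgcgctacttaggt
The longer run of capitals in Mcm6 holds a pair of overlapping E2F matches on opposite strands. One of the E2F forms was in 1.53% of all RefSeq promoters, 3.12% of those of genes tested, 5.46% of those of genes at least 2-fold lower, 1.68% of those at least 2-fold higher and 11 of 60 of replication genes (18.3%). CCAAT was in 33.8% of all RefSeq promoters, 35.8% of those of genes tested, 43.8% of the lower group and 32.3% of the higher group. By list, it was in 31 of 60 promoters of replication genes (51.7%), 48 of 68 of mitotic genes (70.6%) and 35 of 41 of histone genes (85.4%). TTTGAA was in 16% of all RefSeq promoters and 11.1% of those of genes tested, and in 13.4% and 12.9% of the same groups, between those backgrounds. By list, it was in 7 of 60 promoters of replication genes (11.7%), 25 of 68 of mitotic genes (36.8%) and 17 of 41 of histone genes (41.5%). Many histone promoters are copies of each other and are not independent. A match is again only a run of letters.

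Few genes of the ribosome itself were called. Of 83 ribosomal protein genes, 2 were higher and 0 lower (median 0.30, or 0.03 when scaled by library totals, with 0 higher and 1 lower). At an unadjusted p under 0.05, 1 was lower, and DESeq2 called 0 lower and 10 higher. The replicate block called 46 higher, RLE scaling 5, and the fit without LPS replicate 1 called 11. Leaving out DMSO replicate 4 called 6, LPS replicate 2 called 4, and DMSO replicate 1 or 2 or LPS replicate 3 or 4 called 1. Their share of counts was 4.02% in DMSO and 3.96% in LPS (exact permutation p = 0.743, n = 4 each). Of 54 ribosome biogenesis genes 5 were higher and 9 lower (median 0.05, or -0.24 with 1 higher and 16 lower when scaled by library totals). DESeq2 called 9 higher, and the fits without DMSO replicate 3, DMSO replicate 4 or LPS replicate 4 called 3, and without LPS replicate 1 called 2. Ubtf, a factor of RNA polymerase I, fell by 0.98 and Rrp1b by 1.04.

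Of 59 lysosomal genes 15 were higher and 11 lower, 25.4% and 18.6% and so near the shares of all genes (median -0.01, or 0.05 with RLE scaling), or 7 higher and 22 lower when scaled by library totals. The replicate block called 17 lower. Ctsc, cathepsin C, rose from 72.3 ± 18.9 to 366 ± 64.6 CPM (SD, n = 4 each), while Tfeb, a factor that drives lysosomal genes, fell by 2.12 and the hydrolase Manba by 1.49. Actin cytoskeleton genes were higher in 35 of 50 cases and lower in 1 (median 0.60), with 21 higher when scaled by library totals. The lower count was 2 with the replicate block and 2 without DMSO replicate 1. Marcksl1 measured 171, 92.3, 106 and 91.6 CPM in DMSO and 2135, 1800, 2504 and 2514 CPM in LPS. Marcks, its relative and a binder of actin and membranes, went from 0.276 ± 0.295 to 51.8 ± 3.56 CPM (log2 fold change 7.64, but 9.37 without DMSO replicate 3 and 7.01 without DMSO replicate 2). Actb, beta-actin, was higher by 0.97 log2 units, from 6197 ± 1521 to 12112 ± 571 CPM.

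Of 25 long noncoding RNAs and miRNA hosts, 8 were higher and 2 lower (median -0.19). The lower count was 5 without DMSO replicate 1, 4 with the replicate block, 0 without DMSO replicate 2, LPS replicate 3 or LPS replicate 4 and 1 without DMSO replicate 3, DMSO replicate 4 or LPS replicate 1. Ptgs2os2, a noncoding neighbour of Ptgs2, rose from 4.61 ± 0.886 to 30.9 ± 6.55 CPM (SD, n = 4 each), Mir22hg was higher by 2.58 and Morrbid by 2.44 log2 units. Morrbid is known for acting on Bcl2l11 in myeloid cells.

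The largest decreases over all protein-coding genes, under the conditions given above, were mixed in function. Smad3, which carries TGF-beta signals, measured 23.3, 3.55, 9.24 and 6.33 CPM in DMSO and 0, 0.416, 0.399 and 0.239 CPM in LPS, and fell by 5.18 log2 units (-4.51 without DMSO replicate 1, its highest library). Slc16a12, a monocarboxylate carrier, fell from 28.0 ± 4.25 to 1.40 ± 0.319 CPM and Slc5a3, the myo-inositol carrier, from 201 ± 54.8 to 12.8 ± 2.90 CPM (SD, n = 4 each). Arrb1, beta-arrestin 1, measured 69.4, 77.0, 100 and 105 CPM in DMSO and 8.77, 7.32, 6.26 and 6.64 CPM in LPS. Fam13c fell by 4.15 and Rnf144b fell by 4.17 (-4.77 without LPS replicate 4). With Gpr183 and the histone genes H3c8, H2ac12 and H1f5 these were the 10 genes with the largest falls. Under the same conditions the 10 largest fitted increases were those of Csf2, Il1b, Il1a, Serpinb2, Csf3, Lcn2, Slc7a2, Serpina3f, Ccl22 and Lipg, an endothelial-type lipase, which went from 0.0840 ± 0.0761 to 81.8 ± 40.2 CPM. Csf2 had 0 counts in DMSO, and Slc7a2 and Serpina3f had 1 each, so their places among the 10 are uncertain (Serpina3f was higher by 9.59, or 11.19 without DMSO replicate 3).

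**Figure D5:**
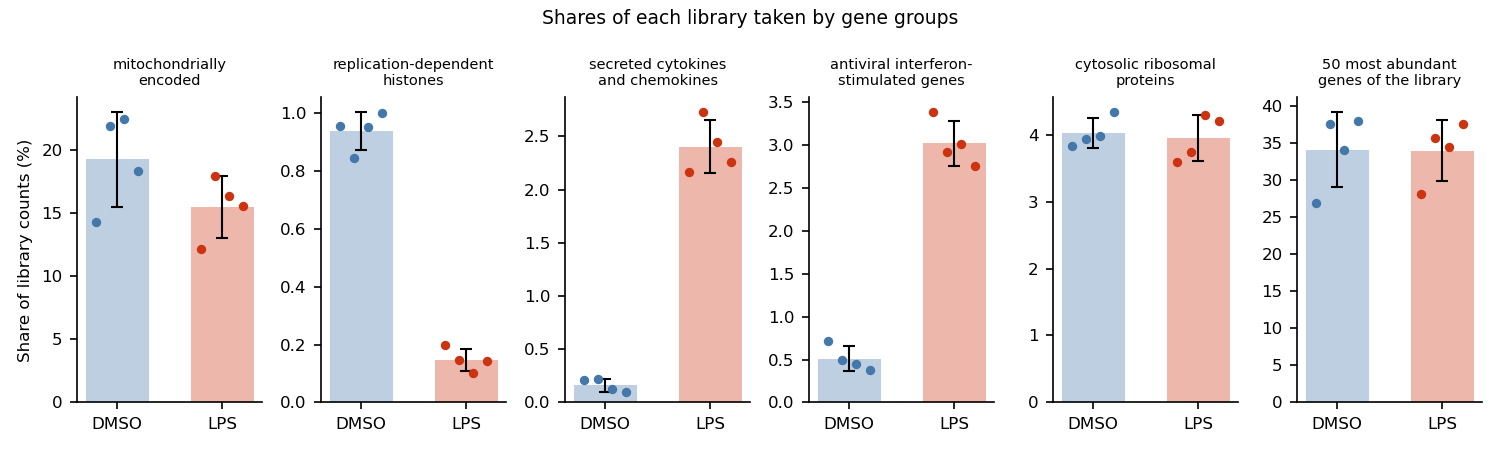
Share of each library's counts taken by 6 groups of genes, in percent, with one panel and one axis per group, points for the 4 libraries, bars for the mean and error bars for the SD (n = 4). Cytokines and chemokines (0.163% to 2.40%) and antiviral genes (0.508% to 3.02%) are higher and histone genes (0.939% to 0.147%) lower in LPS without overlap, while the mitochondrial, ribosomal protein and top 50 shares overlap.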

How the data were processed

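Total RNA of the 8 libraries was made into libraries from 7 ng of RNA with the SMART-Seq Stranded kit, per the labels' protocols. The deposited values are whole-number counts per gene for 55483 genes, 1 column per library, not normalized by the authors. FastQC 0.11.9, STAR, HTSeq and DESeq2 and the build GRCm39 are named in the submitters' processing notes. Whether counting used strand, and which annotation release, is not given in the sources used here.

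Genes were filtered with filterByExpr (minimum count 10). One edgeR 4.0.16 quasi-likelihood fit (R 4.3.3, TMM scaling) over the 12 total RNA libraries, which include 4 given LPS with TM7nox, gave the contrast of LPS minus DMSO for 12369 genes, with Benjamini-Hochberg adjustment over all of them and an FDR threshold of 0.05. CPM are on the TMM scale. The standard error is the log2 fold change divided by the square root of the F statistic. Replicates of a group differed by more than sampling noise (chi-square per gene 38 to 167). DMSO replicate 1 held 2728534 counts against 17361022 to 28285856 in the other libraries, so its low values are the least precise. Intervals of ratios with few counts are exact at the 95% level, a floor of 3 counts over the group stands for a group at 0, and both cover counting error only. Setting genes with 0 counts in a group at that bound left the medians of the 8 lists that hold such genes as they were. For shares of counts, an exact two-sided permutation test was used (smallest p 0.0286).

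Same-numbered DMSO and LPS libraries deviated together from their group means (correlations 0.329, 0.353, 0.194 and 0.361 for replicates 1 to 4), against -0.303 to 0.234 for pairs with different numbers, where LPS replicate 3 correlated best with DMSO replicate 4. The labels give each group the same replicate numbers. A fit with the replicate number as a block was run as an alternative. The 44 gene lists hold 1571 symbols, of which 1408 were tested. Members, lists and tests were chosen with earlier results of these data known. Named genes are a panel, the 3 largest increases and 2 largest decreases of each list and the 10 largest in each direction over all protein-coding genes, each among called genes with a mean of at least 5 CPM and no overlap between groups. Other genes named were chosen after their values were seen. Some genes that the rule names are not reported here. The fit was also run on simulated data with 200 changed genes, and the outcome is not given here.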

Additional observations from a re-analysis of the deposited data

Results flagged for a closer look

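Groups of 4 libraries were examined with Dixon's criterion at the 95% level for a library far from the other 3, and 30 of 420 groups (7.14%) held one. The criterion flags about 1 in 20 independent groups of normal values. These groups share the same libraries and some hold very few counts, so 7.14% cannot be read as an excess. Of the 30 libraries that stood apart, 16 were DMSO replicate 1, 8 were LPS replicate 1, 5 were DMSO replicate 3 and 1 was LPS replicate 2. Values below are CPM, each against the range of the other 3 libraries of its group.

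Where DMSO replicate 1 stood apart as the highest of its group, it measured 13.6 for Irf1 (others 6.88 to 7.57), 322 for Irf7 (121 to 144), 9.15 for Bcl3 (4.66 to 4.81), 3.25 for Ccr1 (0.763 to 1.10) and 59.1 for C3ar1 (27.1 to 32.5). It was also highest for Cd40 at 12.4 (3.45 to 4.75), Arid5a at 7.97 (1.57 to 2.61) and Pmaip1 at 87.7 (36.6 to 42.1). Zfp36l2 at 143 (96.3 to 101), Adam10 at 219 (176 to 181), Gclc at 86.2 (50.1 to 56.1) and H3c8 at 228 (69.3 to 89.5) were high there as well. It was the lowest for Rars at 117 (141 to 145), Dnajb9 at 5.32 (up to 14.6 in the others), Rrp1b at 59.9 (75.3 to 77.8) and Slc5a3 at 119 (220 to 236).

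LPS replicate 1 was lowest for Tlr4 at 21.5 (31.0 to 32.8), Batf2 at 32.4 (44.6 to 46.7) and Slc2a6 at 46.2 (72.0 to 75.6). It was highest for Inpp5d at 83.2 (up to 52.4 in the others), Stat2 at 267 (217 to 224), Rfx5 at 22.2 (13.6 to 14.5), Rrp1b at 45.1 (32.2 to 32.6) and Coro1c at 155 (106 to 114).

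DMSO replicate 3 held small amounts of genes that LPS raised: 5.51 for Ccl5 (1.77 to 1.89), 0.382 for Lcn2 (0 to 0.0428), 0.254 for Serpinb2 (0 to 0.0332) and 0.0424 for Slc7a2 and for Serpina3f (0 in the others), the last 2 being 1 count each. LPS replicate 2 held 29.7 for Slc7a2 (9.73 to 9.94).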

How the results depend on the processing

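Library totals gave 1629 higher, 4253 lower and 2108 genes lower by at least 2-fold, and replicates 1 and 2 alone gave 1048, 620 and 526, while replicates 3 and 4 alone gave 3674 higher and 3675 lower genes. The replicate block gave 3121 higher and 3360 lower genes, 6481 in all, of which 5182 were called in the same direction without it. It gained the calls of Egr1 and Sdha and changed no other call of a named gene. Leaving out 1 library gave 4427 to 5585 called genes.

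The histone share difference was -0.728 points in replicates 1 and 2 and -0.855 in replicates 3 and 4. The ribosomal protein share difference (-0.0658 points) was 0.0870 in replicates 3 and 4 and ran from -0.176 to 0.0573 without 1 library. The top 50 share difference (-0.114 points) was 3.51 without mitochondrial genes, 2.35 over protein-coding genes (exact permutation p = 0.0286, against 0.971 over all genes) and 0.0864 in replicates 3 and 4, and ran from -2.51 to 1.83 without 1 library.

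Of the genes not called, 3 changed sign. Ldha was -0.26 with library totals, -0.03 in replicates 3 and 4 and -0.04 to 0.07 without 1 library. Ccnd1 was 0.05 over 8 libraries and with no filter, 0.04 by DESeq2, 0.03 with RLE scaling, 0.17 in replicates 3 and 4 and -0.14 to 0.09 without 1 library. Pycard was -0.09 with library totals, -0.17 with the replicate block and -0.49 to 0.53 without 1 library. Over the named genes 3101 values kept direction and call, 120 lost the call (50 of them with replicates 1 and 2 alone) and 7 gained it. Of list counts 1177 stayed within 1.5 times and 231 did not. The cause was not tested.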
